A study of Mus musculus with 53 samples.

Results

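Glycolysis is the chain of enzymes that splits glucose to pyruvate in the cytosol. The RNA of its enzymes was followed in single mouse T1 pre-HSCs, the type 1 precursors of haematopoietic stem cells (HSCs). Members were chosen by symbol, with earlier results of these data known, among them the wide spread of Gapdh. They were Gpi1, Aldoa, Tpi1, Gapdh, Pgk1, Pgam1, Eno1, Pkm and Ldha, plus the glucose transporter gene Slc2a1. Of these 10 symbols, 9 had a row among the 14833 genes of the T1 pre-HSC table, and Slc2a1 was not analysed here. The cells were sorted from the aorta-gonad-mesonephros region, taken from embryos at E11. There were 12 cells of genotype mH19 delta_DMR/+, called KO (cells 1 to 12), and 10 cells of genotype mH19 flDMR/+, which the labels call wildtype (cells 13 to 22). The allele of KO cells lacks the differentially methylated region (DMR) of H19, and the wildtype cells hold a floxed, undeleted DMR in its place. The Cre driver and the strain background were not given in the sources used here. Cells were moved singly into lysis buffer with ERCC spike-in RNA and amplified by template switching, per the labels' protocols. The study also holds 26 adult HSC libraries and 5 methylation libraries, which were not analysed here.

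In glycolysis, glucose enters through transporters of the Slc2a family and is trapped by hexokinase. Gpi1, phosphofructokinase, Aldoa and Tpi1 turn it into triose phosphates. Gapdh and Pgk1 then carry out the first oxidation and the first ATP-forming step, and Pgam1, Eno1 and Pkm lead to pyruvate, which Ldha reduces to lactate. Adult HSCs in the hypoxic marrow niche are known to lean on glycolysis, and several of these genes are textbook targets of the hypoxia factor HIF-1. Gapdh is also widely used as a loading standard.

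Values were RPKM, reads relative to the length of the transcript and to the reads of the cell, so levels can be compared between genes. Sequencing depth is unknown, and an exact 0 can be a failed estimate. The labels give no embryo, litter or sort of origin. Each genotype therefore counted as a single sample, and differences carry no test or p-value. SDs and ranges are over cells. Wildtype cell 19 is not used below: in 25 of 29 stretches of 500 rows its values matched the other cells best at a shifted row, against 0 of 29 in each of the other 21 cells. Genes at 1 RPKM or more numbered 1517 to 8408 per KO cell and 2067 to 5716 per wildtype cell. H19, the check of genotype, was at 0 to 186 RPKM among KO cells and 231 to 1261 RPKM among wildtype cells. Among 12 listed pre-HSC and haemogenic markers, the endothelial protein C receptor gene Procr reached 1 RPKM in 9 of the 12 KO and 8 of the 9 wildtype cells, and Ptprc, the pan-leukocyte gene that type 1 cells are known to lack, in 1 of the 12 KO and 1 of the 9 wildtype cells. Procr and Esam were the best detected of the 12. Gfi1, a transcription factor gene of emerging stem cells, reached 1 RPKM in 0 of the 12 KO and 7 of the 9 wildtype cells, and Runx1, the master regulator of their emergence, in 4 of the 12 KO and 6 of the 9 wildtype cells. The summed level of the 12 markers was under 12 RPKM in KO cells 1, 3 and 9 and in wildtype cells 13 and 14. The markers thus go against the label in those 5 cells. The summed level of the 8 listed erythroid markers had a median of 0 in both genotypes, with highest values of 148 RPKM among KO cells and 239 RPKM among wildtype cells. The summed mesenchymal markers had a median of 56.0 RPKM among KO cells and 118 RPKM among wildtype cells. Their highest sums were in KO cells, 2022 RPKM in cell 11, 998 in cell 4, 606 in cell 1 and 324 in cell 9. A wildtype cell held at most 316 RPKM.

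The following stretches of upstream DNA show the start regions of members on which the account turns: Gpi1, the member with the largest difference between genotypes, Gapdh, the member with the highest level, and Ldha, the member richest in the motif searched. The motif was ACGTG, a form of the core of hypoxia response elements, on either strand, in the 250 bases before each transcription start. The other form, GCGTG, was not searched, and the Gapdh stretch holds it unmarked. The palindrome CACGTG, also known as an E-box, holds it on both strands and was counted once. Capitals mark matches. The sequences are from RefSeq on GRCm38.p6, the assembly also called mm10, and are given 5′ to 3′ on the strand of the gene. The stretch before Gpi1 is chr7:34230337-34230586 on the minus strand, that of Gapdh chr6:125165774-125166023 on the minus strand, and that of Ldha chr7:46845554-46845803 on the plus strand.
Gpi1: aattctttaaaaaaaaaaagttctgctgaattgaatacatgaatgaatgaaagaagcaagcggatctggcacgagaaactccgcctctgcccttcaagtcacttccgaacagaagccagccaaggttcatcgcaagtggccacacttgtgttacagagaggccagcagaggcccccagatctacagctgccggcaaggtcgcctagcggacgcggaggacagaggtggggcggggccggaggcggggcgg
Gapdh: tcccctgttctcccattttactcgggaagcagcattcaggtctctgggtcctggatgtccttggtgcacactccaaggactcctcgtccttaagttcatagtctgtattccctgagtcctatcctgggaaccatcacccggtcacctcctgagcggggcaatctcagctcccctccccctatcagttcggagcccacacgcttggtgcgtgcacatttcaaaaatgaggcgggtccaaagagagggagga
Ldha: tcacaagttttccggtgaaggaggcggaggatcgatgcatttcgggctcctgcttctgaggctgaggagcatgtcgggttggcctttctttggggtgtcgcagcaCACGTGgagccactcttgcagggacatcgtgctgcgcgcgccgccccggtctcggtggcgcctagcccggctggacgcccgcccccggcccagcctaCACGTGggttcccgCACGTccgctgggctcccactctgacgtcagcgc
The Ldha stretch held 3 such places, whereas the Gpi1 and Gapdh stretches held 0. A second listed start of Ldha, with the window chr7:46846832-46847081, held 0 as well. Among the 9 members, 15 start sites were listed, and 6 of these windows held the motif, in Aldoa, Ldha, Pgam1, Pgk1 and Pkm. These are 5 of 9 members, against 18.5% of 27025 genes and 16.6% of 32851 windows in the whole table. Members with several listed starts had more chances of a match. The motif is a string of letters here and not a measured binding site.

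Gapdh, Ldha, Aldoa and Eno1 were the most abundant members in both genotypes, and Gpi1, Pgam1 and Pgk1 were among the lowest. Over all 21 cells the medians were 568 RPKM for Gapdh, 405 for Ldha, 316 for Aldoa, 170 for Eno1, 97.7 for Pkm, 70.2 for Tpi1, 47.4 for Pgam1, 33.7 for Pgk1 and 21.8 for Gpi1. In KO cells the order was Gapdh, Ldha, Aldoa, Eno1, Pkm, Gpi1, Tpi1, Pgam1 and Pgk1. In wildtype cells it was Gapdh, Ldha, Aldoa, Eno1, Tpi1, Pkm, Pgam1, Pgk1 and Gpi1. Neighbours in these orders had overlapping interquartile ranges, except Gapdh and Ldha and, further down, Pkm and Pgam1 in wildtype cells. Together the 9 enzymes made up 0.00297 to 0.327% of the listed RPKM of a KO cell and 0.0387 to 0.292% of that of a wildtype cell.

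**Figure D1:**
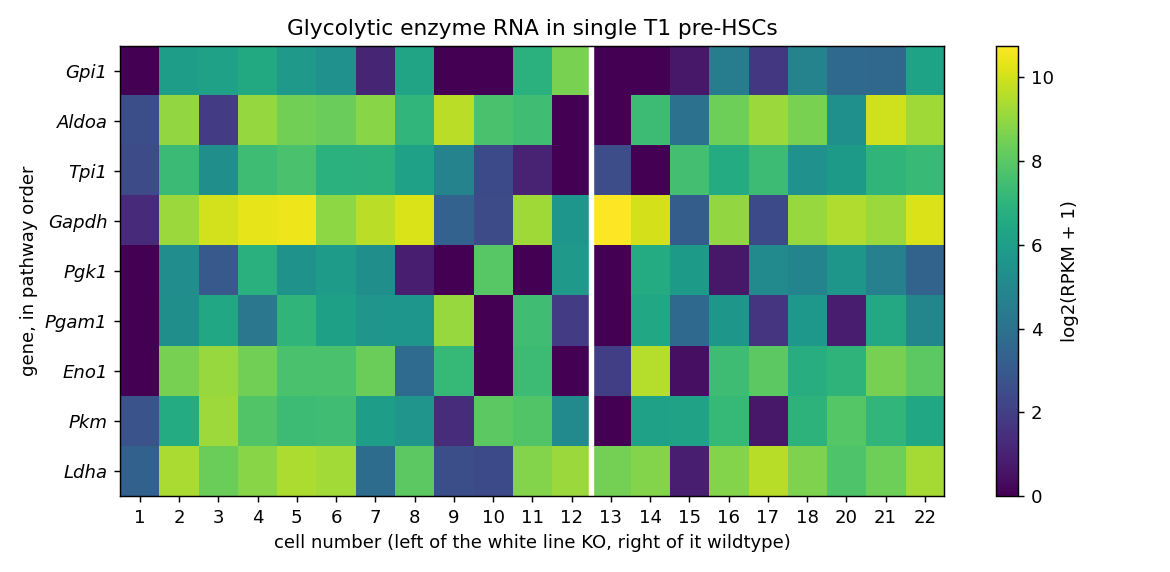
Level of each of the 9 enzymes (rows, in pathway order) in each cell (columns), as log2(RPKM + 1) in colour, with 12 KO cells left of the white line and 9 wildtype cells right of it. Dark cells of the grid interrupt most columns at different rows, and KO cell 1 is dark in all rows, with no value above 9.09 RPKM.

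RNA of the whole chain was not detected in many cells. All 9 enzymes reached 10 RPKM in 4 of 12 KO cells, numbers 2, 4, 5 and 6, and in 2 of 9 wildtype cells, numbers 18 and 21. At the lower bar of 1 RPKM, all 9 were detected in 6 of the 12 KO and 3 of the 9 wildtype cells. KO cell 1 had 0 enzymes at 10 RPKM. Its highest was Ldha at 9.09 RPKM, while Actb, cytoplasmic actin, stood at 1950 RPKM and Rplp0, a ribosomal stalk protein, at 447 RPKM. The steps with low values differed from cell to cell, as the heat map of levels by cell shows. A low value can be RNA that the library of a single cell missed, which was not tested.

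Gapdh, glyceraldehyde-3-phosphate dehydrogenase (ENSMUSG00000057666.14, chr6:125161852-125166467), reached 1 RPKM in all 12 KO and all 9 wildtype cells, but at levels far apart. The 12 KO cells, in the order of their numbers, held 1.46, 560, 1019, 1321, 1418, 488, 790, 1123, 9.45, 4.53, 597 and 49.8 RPKM. The 9 wildtype cells, in the same way, held 1720, 1055, 8.05, 512, 4.30, 545, 706, 568 and 1145 RPKM. Of the 21 cells, 15 had 400 RPKM or more, 5 had under 10 RPKM and KO cell 12 alone lay between. The low cells were 3 of 12 in KO and 2 of 9 in wildtype. The low group was not uniform elsewhere in the chain. Wildtype cell 17, at 4.30 RPKM of Gapdh, had Ldha at 779, Aldoa at 565, Eno1 at 260 and Tpi1 at 167 RPKM. KO cell 9, at 9.45 RPKM of Gapdh, had Aldoa at 796 and Pgam1 at 539 RPKM. The reverse held in wildtype cell 13, where Gapdh reached its maximum of 1720 RPKM and Gpi1, Aldoa, Pgk1, Pgam1 and Pkm were all listed at 0.

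The enzymes before Gapdh were Gpi1, glucose-6-phosphate isomerase (ENSMUSG00000036427.4, chr7:34201327-34230336), Aldoa, an aldolase (ENSMUSG00000030695.9, chr7:126795234-126800994), and Tpi1, triosephosphate isomerase (ENSMUSG00000023456.10, chr6:124810586-124814158). Gpi1 was lowest at 0, with a median of 59.1 and a highest value of 387 RPKM in KO cells, against 0, 11.3 and 73.3 RPKM in wildtype cells. It was listed at 0 in 3 KO and 2 wildtype cells. KO cells 11 and 12, at 114 and 387 RPKM, and KO cells 4 and 8, at 91.0 and 75.7 RPKM, lay above every wildtype cell. Aldoa ranged from 0 to 796 RPKM in KO cells with a median of 260, and from 0 to 989 RPKM in wildtype cells with a median of 330. It was listed at 0 in KO cell 12 and wildtype cell 13. Tpi1 ranged from 0 to 202 RPKM in KO cells with a median of 55.1, and from 0 to 186 RPKM in wildtype cells with a median of 98.3. It was listed at 0 in KO cell 12 and wildtype cell 14. For Aldoa and Tpi1 the genotypes overlapped over most of their ranges, and for Gpi1 8 of 12 KO cells lay within the wildtype range.

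Between Gapdh and pyruvate, the chain runs through Pgk1, phosphoglycerate kinase (ENSMUSG00000062070.8, chrX:106187100-106203699), Pgam1, phosphoglycerate mutase (ENSMUSG00000011752.6, chr19:41911871-41918665), Eno1, the ubiquitous enolase (ENSMUSG00000063524.9, chr4:150236708-150248879), and Pkm, muscle-type pyruvate kinase (ENSMUSG00000032294.12, chr9:59656576-59679372). Pgk1 reached 1 RPKM in 8 of 12 KO cells, 66.7% with an exact Clopper-Pearson 95% interval of 34.9 to 90.1%, and in 7 of 9 wildtype cells, 77.8% with an interval of 40.0 to 97.2%. These intervals cover counting error only. Its highest values were 245 RPKM in cell 10 of the KO group and 97.1 RPKM in wildtype cell 14. Pgam1 had a median of 48.0 RPKM among KO cells and 29.2 RPKM among wildtype cells. Its highest values were 539 RPKM in cell 9 of the KO group and 87.7 RPKM in wildtype cell 21. KO cells 5, 9 and 11 lay above all wildtype cells for Pgam1, and both genotypes held cells listed at 0.

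Eno1 was listed at 0 in KO cells 1, 10 and 12 and in none of the 9 wildtype cells, where its lowest value was 0.343 RPKM. Its medians were 182 RPKM among KO cells and 170 RPKM among wildtype cells, and its highest values 538 and 756 RPKM. Pkm was detected in all 12 KO cells, at 1.54 to 577 RPKM with a median of 130. In wildtype cells it ran from 0 to 240 RPKM with a median of 87.4. The muscle and fetal splice forms of Pkm are not separated in these gene-level values.

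Ldha, the lactate dehydrogenase subunit that is known to favour lactate formation (ENSMUSG00000063229.10, chr7:46842274-46855627), reached 400 RPKM in 6 of the 12 KO and 5 of the 9 wildtype cells. Its lowest, median and highest values were 4.32, 380 and 684 RPKM in KO cells and 0.843, 405 and 779 RPKM in wildtype cells. Wildtype cell 15 stood alone at 0.843 RPKM, with the next wildtype cell at 220 RPKM. In KO cells the low end was broader, with cells 1, 9 and 10 under 10 RPKM and cell 7 at 12.8 RPKM. Ldhb, the other main subunit, was as abundant in many cells. It reached 1 RPKM in 8 of the 12 KO and 7 of the 9 wildtype cells, and its highest values were 3030 RPKM in cell 3 of the KO group and 902 RPKM in wildtype cell 18. Ldha exceeded Ldhb in 12 of 21 cells and Ldhb exceeded Ldha in 9. Both subunits were at 10 RPKM or more in 13 cells, Ldha alone in 4, Ldhb alone in 1 and neither in 3. The brain enolase gene Eno2 and the sperm gene Gapdhs were listed at 0 in all 21 cells. The muscle enolase gene Eno3 was above 1 RPKM in KO cell 1, at 770 RPKM, and in wildtype cell 14, at 127 RPKM. Eno1 was listed at 0 in that KO cell and stood at 756 RPKM, its maximum, in that wildtype cell.

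The design sets cells without the H19 DMR against cells that keep it. The mean log2(RPKM + 1) of the 9 enzymes averaged 5.68 ± 2.00 in KO cells (SD over 12 cells) and 5.68 ± 1.61 in wildtype cells (SD over 9 cells). Without KO cells 1, 9 and 12, which had under 2000 detected genes, it was 6.51 ± 1.34 among the other 9 KO cells. That cut takes out no wildtype cell and keeps the KO cells with more detected genes than any wildtype cell. Over the 5 KO cells within the wildtype range of detected genes, a setting chosen after seeing the data, the mean was 5.68 ± 1.27. Over all cells, Gpi1 was the 1 member that differed by at least 1 on the log2 scale, a limit of size that tests nothing. It lay higher in KO. Of 3867 genes compared, 11.4% lay higher in KO by that size, 28.0% lower and 39.4% in either direction. No member lay lower by that size. In all 9 members the difference was smaller than the SD over cells in either genotype, and in all 9 the genotypes overlapped. Groups that do not overlap were found for 0.0517% of the genes compared.

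**Figure D2:**
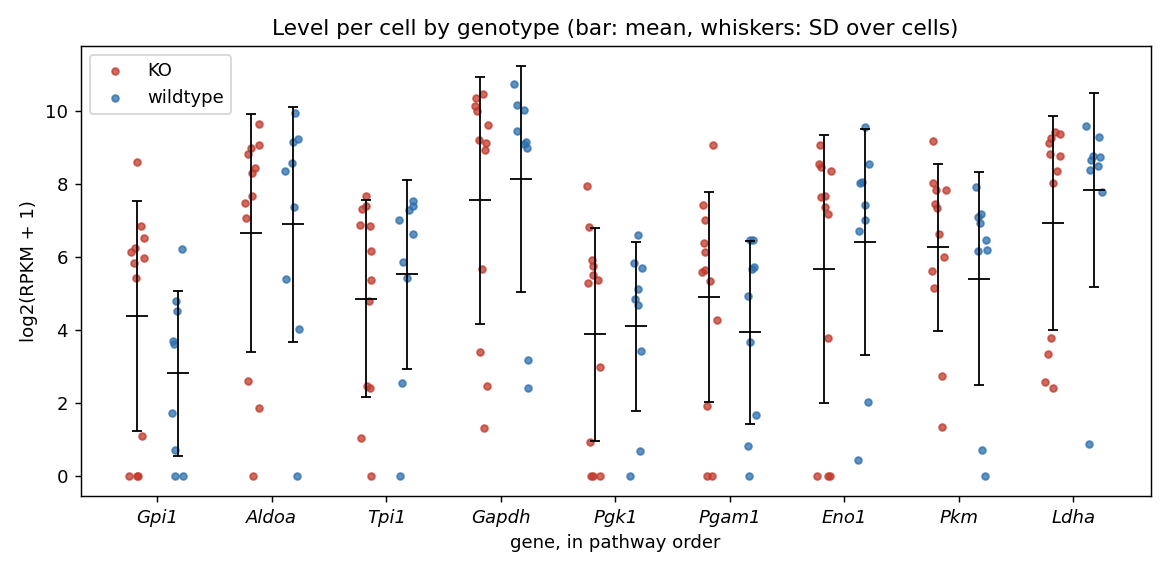
Level of each enzyme as log2(RPKM + 1) in single KO cells (red, left of each pair) and wildtype cells (blue), with the mean as a bar and the SD over cells as whiskers. The genotypes overlap for all 9 genes, and the Gpi1 means lie furthest apart, at 4.39 among KO cells and 2.81 among wildtype cells.

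The mean log2(RPKM + 1) of Gpi1 was 4.39 ± 3.15 among KO cells and 2.81 ± 2.27 among wildtype cells, a difference of 1.58, KO minus wildtype. Pgam1 averaged 4.90 ± 2.87 among KO cells and 3.93 ± 2.51 among wildtype cells, a difference of 0.97, just under the limit. Pkm averaged 6.26 ± 2.29 among KO cells and 5.41 ± 2.92 among wildtype cells, a difference of 0.86. The other 6 differences were negative: -0.91 for Ldha, -0.74 for Eno1, -0.66 for Tpi1, -0.58 for Gapdh, -0.23 for Aldoa and -0.22 for Pgk1. Of 9 members, 3 thus lay higher in KO by any amount, against 35.7% of the genes compared. Without the 3 KO cells under 2000 detected genes, 8 of 9 members lay higher in KO, against 58.6% of genes: Aldoa was then at 0.63, Tpi1 at 0.15, Gapdh at 0.79, Pgk1 at 0.43 and Eno1 at 0.35, and Ldha alone stayed negative at -0.27. The median over members was -0.23, beside -0.36 over all genes compared, and 5 of 9 members lay above that median. All 9 members passed the filter for comparison, 1 RPKM in at least 50% of cells, in both genotypes.

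Detected genes per cell moved with these values. Over the 21 cells the mean log2(RPKM + 1) of the enzymes had a Spearman rho of 0.91 with the number of genes at 1 RPKM or more, 0.94 within the 12 KO and 0.83 within the 9 wildtype cells. Both quantities come from the same library and share its depth, so this is a description. For the mean of 9 listed household genes, among them Actb and Eef1a1, the same rho was 0.68. KO cells 2, 4, 5 and 6 had 5994, 6411, 8408 and 6215 detected genes, more than any wildtype cell, and an enzyme mean of 7.33 to 7.73. KO cells 1, 9 and 12 had 1517, 1891 and 1796, fewer than any wildtype cell, and an enzyme mean of 1.38 to 4.22. The part of detection in the differences between genotypes was not tested. Over the 5 KO cells within the wildtype range of detected genes, a setting chosen after seeing the data, 5 members differed by at least 1, as did 55.9% of all genes compared in those cells. Gpi1 was then at 1.26, Pgam1 at 1.08 and Pkm at 1.93, higher in KO, and Ldha at -1.58 and Tpi1 at -1.16, lower in KO. By any amount, 4 of 9 members lay higher in KO over those cells, against 34.1% of genes. Markers were set side by side as well. Of 8 pre-HSC and haemogenic markers compared, 5 differed by under 1 and 3 lay lower in KO by at least 1. That count is near the share of 28.0% among all genes compared. The 3 lower ones were Runx1 at -2.70, Gfi1 at -2.57 and Neurl3 at -2.13. Runx1 and Gfi1 passed the filter through wildtype cells, so that their difference was selected for and is given as a value only. The summed endothelial markers had a median of 718 RPKM among KO cells and 1965 RPKM among wildtype cells. Egfl7 alone had medians of 534 and 1741 RPKM. Of 9 endothelial markers compared, 6 differed by under 1, 2 lay lower in KO and 1, Emcn, lay higher, at 1.34. The summed macrophage markers had a median of 10.1 RPKM among KO cells and 71.8 RPKM among wildtype cells. Of these markers, Lyz2 alone had medians of 0.70 and 71.7 RPKM. Cd68 and Mrc1 went the other way, reaching 1 RPKM in 2 and 1 of the 12 KO cells and in 0 of the 9 wildtype cells. Fcgr1 reached it in 0 of the 12 KO and 1 of the 9 wildtype cells. KO cells 9 and 11, with 539 and 173 RPKM the highest for Pgam1, were among the cells with high mesenchymal sums. The part of these markers in the enzyme values was not tested.

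Leaving out the 5 cells with little pre-HSC marker RNA, also chosen after seeing the data, kept 9 KO and 7 wildtype cells. The enzyme mean was then 6.22 ± 1.57 among KO cells and 6.05 ± 1.31 among wildtype cells, and its rho with detected genes 0.92 over 16 cells. Gpi1 was at 1.56 and Tpi1 at -1.66, and these 2 members differed by at least 1, as did 42.9% of all genes compared in those cells. The differences of Gapdh, Pgk1 and Ldha, negative over all cells, were then positive, at 0.95, 0.51 and 0.04. Of the 9 members, Gpi1 and Pgam1 were higher in KO under all 15 other settings tried, of which 3 leave both values as they are, and without any single cell. The other 7 members each had the opposite sign under at least 1 setting, and Pkm was at -1.07 over cells with Xist, the RNA of the inactive X, under 1 RPKM.

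**Figure D3:**
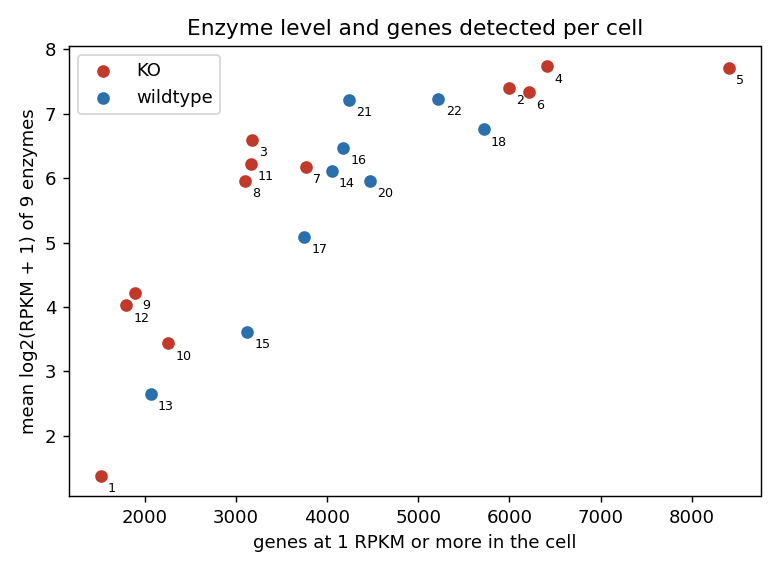
Mean log2(RPKM + 1) of the 9 enzymes against the number of genes at 1 RPKM or more, 1 point per cell with its number, KO in red and wildtype in blue. Points climb from KO cell 1, at 1517 genes, to KO cells 4 and 5, at 6411 and 8408 genes.

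The enzymes varied between cells about as much as other genes. The SD of log2(RPKM + 1) over the 21 cells was 2.55 for Pkm, the lowest, to 3.37 for Eno1, with a median of 2.79 over the 9 members, beside 2.72 over all genes compared. The 9 household genes had a median SD of 1.10. Ppia, a cyclophilin, had 0.55, Actb 0.76 and Rplp0 0.80, with lowest values of 3319, 473 and 307 RPKM. Gapdh, often grouped with them, had 3.20. B2m, the beta-2 microglobulin gene of the same household list, had 4.32.

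Pairs of enzymes co-varied weakly. The median Spearman rho over the 36 pairs of members was 0.22 over 21 cells, beside 0.15 over all pairs of compared genes and 0.096 over the 36 pairs of household genes. Within genotypes it was 0.25 among KO cells and 0.079 among wildtype cells, beside 0.21 and 0.075 over all pairs. After division by the summed household genes it was 0.15 over the 21 cells. The highest rho values were 0.53 for Aldoa with Tpi1, consecutive steps, 0.52 for Gpi1 with Ldha, 0.51 for Pgam1 with Eno1, also consecutive, and 0.50 for Aldoa with Eno1. Pgk1 with Pgam1, likewise consecutive, had the lowest, -0.20. Gapdh with Pgk1, the step after it, had -0.04. Tpi1 with Gapdh had 0.68 in KO and -0.62 in wildtype cells. That difference between genotypes was not tested. All cells share the same protocol, differ in depth and hold many values near 0.

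**Figure D4:**
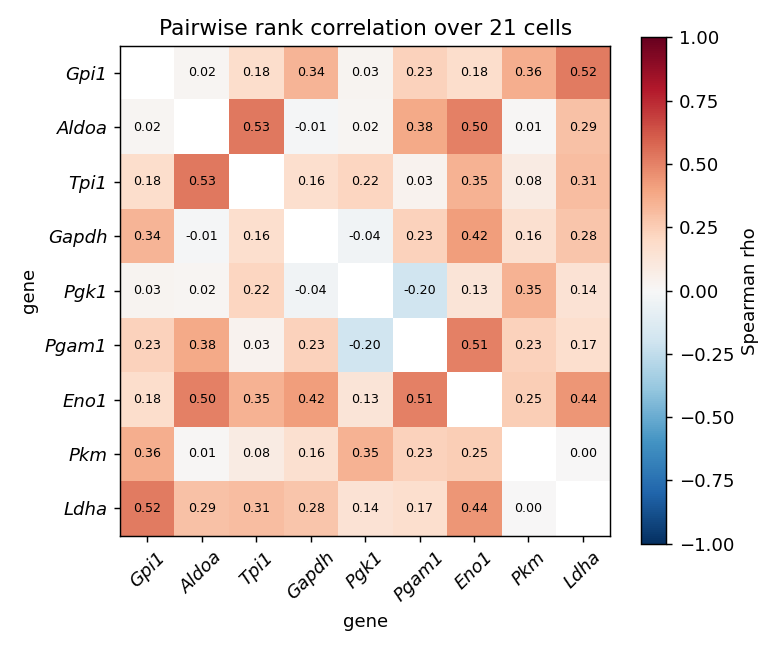
Spearman rho over 21 cells for each pair of the 9 enzymes, in colour and as numbers, with genes in pathway order on both axes. Values run from -0.20 for Pgk1 with Pgam1 to 0.53 for Aldoa with Tpi1, and 4 of 36 pairs reach 0.50.

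Eno1 and Pgk1 each had a near-copy in the table whose values followed it almost cell by cell. Eno1b had a Spearman rho of 0.99 with Eno1 over the 21 cells. In the 16 cells with Eno1 at 10 RPKM or more, the ratio of Eno1b to Eno1 was 0.289 to 0.493, with a median of 0.459. Pgk1-rs7 had a rho of 0.98 with Pgk1 and, in 13 cells, a ratio of 0.675 to 1.01 with a median of 0.824. In the cells where Eno1 was under 1 RPKM, Eno1b was too, and the same held for Pgk1 and Pgk1-rs7. How reads that map to several copies were assigned was not given in the sources used here, so the levels of Eno1 and Pgk1 are uncertain by about the size of those rows. With the copies added, the difference of Eno1 was -0.91 and that of Pgk1 -0.40. Aldoart1, a retrogene of aldolase, reached 22.0 RPKM at most. Ldha-ps2 and Pgam1-ps2 were listed at 0 in all 21 cells.

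**Figure D5:**
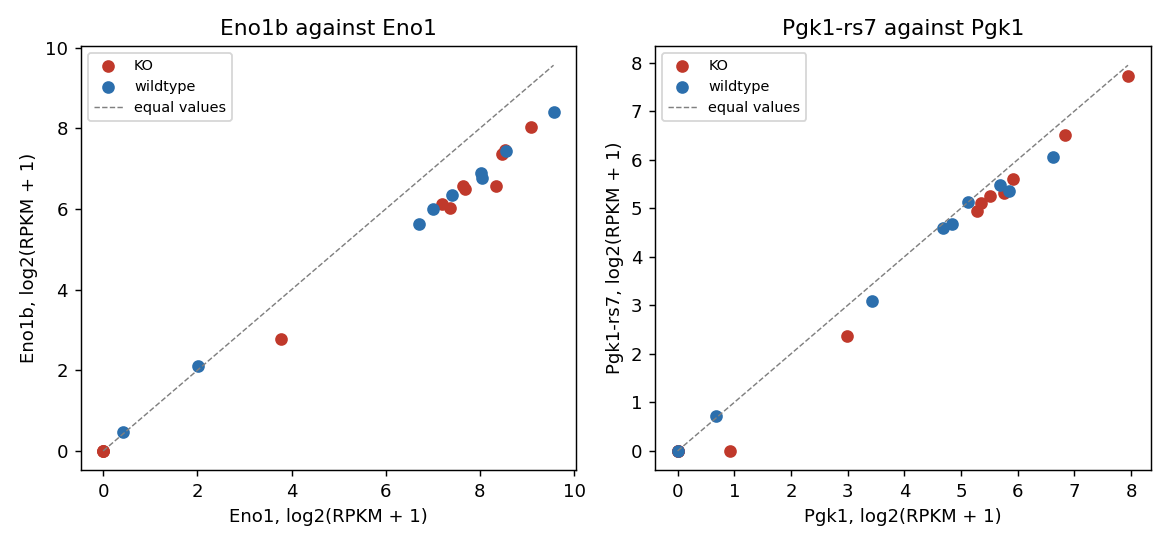
Left, Eno1b against Eno1, and right, Pgk1-rs7 against Pgk1, both as log2(RPKM + 1), 1 point per cell, KO in red and wildtype in blue, with a dashed line of equal values. Most points with a high member lie on or under the line of equal values, with median ratios of 0.459 for Eno1b and 0.824 for Pgk1-rs7 in cells where the member reached 10 RPKM.

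Glucose carriers, hexokinases and phosphofructokinases were seen in part of the cells. Of the genes for the phosphofructokinase step, 1 passed the filter, Pfkl, the liver-type form. It was detected in 7 of the 12 KO and 5 of the 9 wildtype cells and reached 19.9 RPKM among KO cells and 26.5 RPKM among wildtype cells, with a difference of -0.09. The hexokinase gene Hk1 reached 1 RPKM in 4 of the 12 KO and 3 of the 9 wildtype cells, with highest values of 76.3 RPKM among KO cells and 19.0 RPKM among wildtype cells. Hk2, another hexokinase, reached it in 4 of the 12 KO and 4 of the 9 wildtype cells, with highest values of 15.4 RPKM among KO cells and 177 RPKM among wildtype cells. At least 1 of these hexokinase genes reached 1 RPKM in 5 of the 12 KO and 7 of the 9 wildtype cells. At least 1 phosphofructokinase gene did so in 8 of the 12 KO and 6 of the 9 wildtype cells, and Pfkp, the platelet form, was highest at 135 RPKM among KO cells and 59.0 RPKM among wildtype cells. Of the glucose transporters listed, Slc2a3 reached 1 RPKM in 2 of the 12 KO and 4 of the 9 wildtype cells. Slc2a8 and Slc2a10 each did so in 1 of the 12 KO and 0 of the 9 wildtype cells. At least 1 glucose transporter gene reached 1 RPKM in 4 of the 12 KO and 4 of the 9 wildtype cells. Bsg, basigin, a membrane partner of the lactate carriers, was present in every cell. Its lowest, median and highest values were 60.5, 612 and 892 RPKM in KO cells and 21.7, 236 and 436 RPKM in wildtype cells. Mean log2(RPKM + 1) was 8.89 ± 1.03 among KO cells and 7.49 ± 1.35 among wildtype cells, a difference of 1.39. KO cells 1, 3, 5, 6, 8, 9, 11 and 12 lay above all 9 wildtype cells, and the other 4 within their range. Over cells matched for the range of detected genes the difference was 0.94, and without the 5 low-marker cells 0.88, both under the limit. The carriers Slc16a1 and Slc16a3 themselves reached 1 RPKM in 2 and 1 of 12 KO cells and in 0 and 1 of 9 wildtype cells.

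At the exits from the pathway, 6 of 14 listed genes of the fructose bisphosphate and pyruvate switches were compared. Of these, 2 passed the filter in both genotypes, with 0 of them differing by at least 1, against 39.4% of all genes compared. The genes past the limit, 1 in each direction, passed the filter in the genotype where they were higher, so that their difference was selected for and is given as a value only. Dld, the E3 subunit of pyruvate dehydrogenase, was detected in 6 of the 12 KO and 2 of the 9 wildtype cells, a difference of 1.55. Pdk3, a kinase that switches that complex off, was detected in 4 of the 12 KO and 6 of the 9 wildtype cells, a difference of -1.03 that was positive, at 0.13, with cells shifted to an equal median and, at 0.40, over cells with Xist under 1 RPKM. The mitochondrial pyruvate carrier genes Mpc2 and Mpc1 were at -0.81 and 0.71. Of pentose phosphate and glucose synthesis genes, 2 passed the filter in both genotypes and 1 of them, Pgls, 6-phosphogluconolactonase, lay lower in KO, at -1.73. Of all genes compared, 28.0% lay lower by at least 1. G6pc3, a glucose-6-phosphatase, was at -1.60 but passed the filter through wildtype cells, and it differed by at least 1 under 8 of 13 settings, with values up to -0.44, while Taldo1 and Tkt, the transaldolase and transketolase, were at -0.30 and 0.02. The Pgls difference was positive, at 0.63, over cells with Xist under 1 RPKM. Both Pgls and G6pc3 ranged from 0 in each genotype, to 377 and 241 RPKM in KO and to 497 and 260 RPKM in wildtype cells.

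Of 17 citric acid cycle genes, 10 passed the filter in both genotypes, and 1 of these lay higher and 3 lower by at least 1, against 11.4% and 28.0% of all genes compared, which passed in either genotype. The higher one was Ogdh, the E1 subunit of oxoglutarate dehydrogenase, at 1.07. The 4 subunits of succinate dehydrogenase lay on both sides of 0. Sdhd, a membrane anchor, was at -2.39 while Sdhc, the other anchor, was at 1.55, passing the filter through KO cells (6 of 12, against 2 of 9 wildtype cells), and Sdha, the flavoprotein, at -0.64. Sdhb, the iron-sulfur subunit, was at -1.34, with a median of 331 RPKM among KO cells and 272 RPKM among wildtype cells, and by medians over cells its difference was positive, at 0.28. Sucla2, a succinate-CoA ligase subunit, was at -1.22, and at 0.065 over cells matched for detected genes.

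Among hypoxia regulators and targets, 2 of 19 listed genes passed the filter in both genotypes, and 1 of them lay higher by at least 1. The share of all genes compared, which passed in either genotype, was 11.4%. Mif, a cytokine gene among HIF-1 targets, was at 1449 to 6096 RPKM in KO cells and 3.32 to 5592 RPKM in wildtype cells, a difference of 1.42. Wildtype cell 15 was the one at 3.32 RPKM, the next lowest held 1052 RPKM, and without cell 15 the difference was 0.43. Bnip3l, a mitophagy receptor, was at 0.29. Hif1a itself stayed under 1 RPKM in all 12 KO cells and reached it in 5 of 9 wildtype cells, a difference of -1.68 in a gene that passed the filter through wildtype cells. Its row is number 13 of the table, among 24 placed ahead of the alphabetical order, and 1 pair of cells in it shares the same digits. The pair is KO cell 2, at 0.750503 RPKM, and wildtype cell 15, at 7.50503 RPKM, which is among the 5 wildtype cells counted. The 9 enzyme rows lie in the alphabetical part and hold 0 such pairs.

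Outside the pathway, the 6 genes whose level followed the enzyme mean most closely were Arf1, a GTPase of Golgi coats, Lamp1, a lysosomal membrane protein, Ppp2r1a, the scaffold of protein phosphatase 2A, Tmem160, Nap1l4, a histone chaperone, and Amd1, an enzyme of polyamine synthesis. They were ranked among 2438 genes by Spearman rho over 21 cells, which ran from 0.83 to 0.87. Arf1 had a rho of 0.87 with the enzyme mean and 0.92 with the number of detected genes, and Lamp1 0.87 with the enzyme mean and 0.88 with detected genes. For Tmem160 the values were 0.85 and 0.69. These rho values describe 21 cells that differ in detection and carry no p-value. Arf1 was at 0 to 257 RPKM among KO cells and 0 to 228 RPKM among wildtype cells.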

How the data were processed

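Single-cell RNA libraries of 12 KO and 10 wildtype T1 pre-HSCs were analysed, with wildtype cell 19 left out. The authors deposited RPKM per gene and cell, and the submitters' processing notes name Cufflinks 2.1.0 and build mm10. Aligner, annotation and handling of multiply mapped reads were not given in the sources used here. Since RPKM is relative to the reads of the cell, abundant genes lower all others. Whole reads cannot be recovered from these estimates, so depth is unknown.

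Columns were matched to samples by cell number. Genes at 1 RPKM or more in at least 50% of cells of either genotype were compared, as differences of mean log2(RPKM + 1), KO minus wildtype. With 1 sample per genotype there was no test. Correlations are Spearman's. Python 3.11.15, pandas 2.3.3, NumPy 2.4.6 and SciPy 1.17.1 were used, and the functions were tested on simulated data. Wildtype cell 19 was correlated with the others' mean at offsets of up to 5 rows. Promoters and gene positions are from RefSeq, where all 9 listed members matched by symbol.

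The members, lists and alternatives were chosen with earlier results of these data known. Named genes are all members, listed isozymes and copies, up to 4 compared genes of each list with the largest differences, and the 6 most similar genes, without predicted genes and pseudogenes. Hk1, Hk2, Slc2a3, Slc2a8, Slc2a10, Slc16a1, Slc16a3, Pfkp, Sdha, Ogdh and the markers, and the cells singled out, were named after their values were seen.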

Additional observations from a re-analysis of the deposited data

Results flagged for a closer look

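Ldha in wildtype cell 15, at 0.843 RPKM, lay apart from the other 8 wildtype cells. The gap to the next cell was 0.791 of the range of the 9 cells on the log2(RPKM + 1) scale, above the 95% critical value of 0.493 in Dixon's test. It was the 1 flag among 9 genes checked in the wildtype cells. For normally distributed values, chance flags about 1 in 20 genes, so a flag among 9 genes is less rare than that. These values include many near 0, so the rate of chance flags here is unknown.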

How the results depend on the processing

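The Gpi1 difference was positive and at least 1 under all 15 other settings, from 1.18 to 2.74, of which 3 leave its value as it is, and without any 1 cell, from 1.20 to 2.01. The count of members differing by at least 1 was unstable. It was 3 with a pseudocount of 0.1, with cells shifted to an equal median, with wildtype cell 19 and without cells under 2000 detected genes. It was 2 by the ratio of mean RPKM and without the 5 cells with pre-HSC markers under 12 RPKM, 4 in the 5 KO and 7 wildtype cells with Xist under 1 RPKM and 5 over KO cells within the wildtype range of detected genes. Leaving out 1 cell gave 1 to 4, and changed the count for 20 of 21 cells, the exception being KO cell 7. Pgam1 and Ldha each passed the limit without 9 of the cells in turn, and Pkm without 6. The median over members ranged from -0.62 to 0.93 over the 15 settings, with the sign kept in 9, and from -0.73 to 0.13 without 1 cell. The shift to an equal median moved the median of all compared genes by 1.16. It moves every gene by the same amount. Relative to that median Gpi1 therefore stays at 1.95 and 5 members stay above it by construction, which is no check. The median SD of members was 3.71 with a pseudocount of 0.1, 1.67 with one of 10, 2.41 over cells with Xist under 1 RPKM, 2.49 without the low-marker cells and 2.62 to 2.86 without 1 cell. The median rho of member pairs was 0.13 to 0.27 without 1 cell. In the pathway lists 12 genes differed by at least 1, against 5 with a pseudocount of 10, 6 by the ratio of means and 8 to 15 without 1 cell.

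The sign of the difference was kept under 14 of 15 settings for Pkm, 12 for Tpi1 and Ldha, 11 for Aldoa and Eno1, 9 for Gapdh and 8 for Pgk1, and Pkm was at -1.07 over cells with Xist under 1 RPKM. Signs also turned for Pdk3 with cells shifted to an equal median, at 0.13, and at 0.40 with the cells limited to Xist under 1 RPKM. They also turned for Pgls in those cells, at 0.63, for Sdhb with medians over cells, at 0.28, for B2m by the ratio of means, at 0.10, and without cells under 2000 genes, at 0.092, and for Sucla2 over KO cells within the wildtype range of detected genes, at 0.065. The causes were not tested. Adding Eno1b and Pgk1-rs7, matching the range of detected genes and leaving out low-marker cells were chosen after seeing the data. No paired analysis was possible because KO and wildtype cells share no cell numbers and no label pairs them.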
